A study of Homo sapiens with 5 samples.

Results

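The row uc001nsl.3 is a transcript with a coding length of 445 codons, described here as a transcript of FADS2, the gene of a fatty acid desaturase. It was followed across 5 ribosome profiling libraries together with 3 rows of neighbouring isoforms that share its footprints. These are 4 of the 182398 rows of the deposited tables, of which 93916 carry a coding length. The row was chosen by its counts per library, which were higher in the QTRT1 knockout library than in the other 4 after scaling. Its levels and all QTRT1 comparisons are therefore given as a description, without a test. The comparison of QTGAL with QTMAN knockout was not used in that choice and was tested.

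The assignment to FADS2 was made beforehand from the coding length and was not checked by sequence. A length of 445 codons leaves 444 residues and a stop codon, which is the known length of the FADS2 protein. In all, 49 tested transcripts have this coding length, so the length by itself does not identify a gene. The tables pair no identifier with a symbol, and the names of 0 genes in the RefSeq gene table hold this identifier. RefSeq places FADS2 (gene ID 9415) on chromosome 11, chr11:61816203-61867354 in GRCh38.p14, the assembly that the submitters name as hg38. All values below are those of the named rows.

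FADS2 is an enzyme of the endoplasmic reticulum membrane that inserts a double bond near the carboxyl end of dietary linoleic and alpha-linolenic acid. This is the first and rate-limiting step towards long-chain polyunsaturated fatty acids such as arachidonic and docosahexaenoic acid. The protein carries a cytochrome b5 domain that delivers electrons and histidine-rich boxes that hold its catalytic iron. Its transcription is known to respond to sterol regulatory element-binding proteins and to PPAR-alpha.

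All 5 libraries come from HEK293T, a human embryonic kidney cell line, and each library carries the knockout of 1 of 3 genes of queuosine metabolism. Queuosine is a hypermodified guanosine of the anticodon, at the base that reads the wobble position of tyrosine, histidine, asparagine and aspartate codons. QTRT1 encodes the catalytic part of the tRNA-guanine transglycosylase, which puts the queuine base into these tRNAs, QTGAL the enzyme that adds galactose in the tyrosine tRNA, and QTMAN the enzyme that adds mannose in the aspartate tRNA. The groups were QTRT1 KO (1 library), QTGAL KO (2 libraries) and QTMAN KO (2 libraries), with no other allele or agent in the labels. Unmodified cells were not analysed here, so no level of the row in cells with intact queuosine is given.

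Library totals ran from 12002044 to 25291912 counts. The labels do not say whether libraries of a genotype come from separate clones or cultures, so their spread may be technical. A single QTRT1 KO library stands for that genotype, and the genotype, the clone and the library cannot be told apart. RNA levels were not analysed here, so more mRNA and more footprints per mRNA cannot be told apart either. Since identifiers could not be paired with symbols, neither the knocked-out genes nor markers of the cell line were checked.

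The row was covered by 540 footprints in the QTRT1 KO library, 364 and 198 in QTGAL KO replicates 1 and 2, and 254 and 343 in QTMAN KO replicates 1 and 2. Scaled to the effective library size, the QTRT1 KO library stood at 38.4 CPM, the count scaled to a common library size, with a 95% exact Poisson interval of 35.2 to 41.7. QTGAL KO replicate 1 stood at 15.2 CPM (13.7 to 16.9) and replicate 2 at 16.6 CPM (14.4 to 19.1). QTMAN KO replicate 1 stood at 13.3 CPM (11.7 to 15.0) and replicate 2 at 14.0 CPM (12.6 to 15.6). The intervals cover counting error only, as reads without molecular identifiers are not independent molecules. The QTRT1 KO library was thus the highest, and its interval lay above those of the other 4, which ran into one another.

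**Figure D1:**
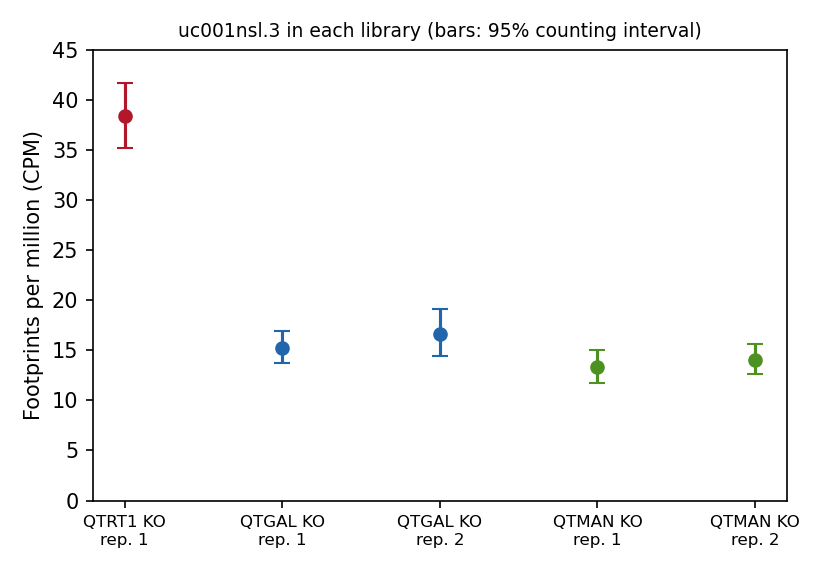
Footprint level of uc001nsl.3 in CPM (y axis) in each of the 5 libraries (x axis), with bars for the 95% exact Poisson interval. The QTRT1 KO library sits at 38.4 CPM and the other 4 between 13.3 and 16.6 CPM.

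By genotype, the level was 38.4 CPM in QTRT1 KO (1 library), 15.9 ± 0.995 CPM in QTGAL KO and 13.7 ± 0.522 CPM in QTMAN KO (SD, n = 2 each). The order was QTRT1, QTGAL, QTMAN. The QTRT1 KO library exceeded QTGAL KO replicates 1 and 2 by ratios of 2.52 and 2.31, with 95% counting intervals of 2.20 to 2.88 and 1.96 to 2.73. It exceeded QTMAN KO replicates 1 and 2 by ratios of 2.89 and 2.74, with intervals of 2.48 to 3.36 and 2.38 to 3.14. The lowest of these 4 ratios belongs to QTGAL KO replicate 2, the shallowest library.

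In the edgeR fit over all transcripts, the log2 fold change of the row was 1.38 ± 0.14 (SE) for QTRT1 KO against the mean of both glycosyltransferase knockouts, which is 2.60-fold. Against QTGAL KO alone it was 1.27 ± 0.16 (2.42-fold), and against QTMAN KO alone 1.49 ± 0.16 (2.81-fold). These comparisons share the one QTRT1 KO library. Among all 60966 tested transcripts, the QTRT1 KO library was above the 4 other libraries for 24.8%, and at least 2-fold above each of them for 0.687%. In the set of 26215 tested transcripts with a mean of at least 5 CPM, that last share was 0.0954% (25 transcripts), while 0.0458% (12 transcripts) lay at least 2-fold below each. The 25 include uc001nsl.3, its 3 isoform rows and the neighbouring rows of 95 and 152 codons, which can hold the same reads. Rows of one locus are counted singly in all these shares, so the numbers are not numbers of separate genes. edgeR called 0.161% of all tested transcripts against both knockouts, 0.00984% against QTGAL KO and 0.113% against QTMAN KO. The row was picked from this contrast, so nothing is read from its place among these shares.

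The set of at least 5 CPM had a median log2 fold change of -0.02 in the QTRT1 comparison and a median absolute one of 0.17. A log2 fold change at least as high as that of uc001nsl.3 was found for 43 of its transcripts, the row included. In the opposite direction, 20 transcripts lay as far below 0. Transcripts with differences as large thus exist on both sides.

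**Figure D2:**
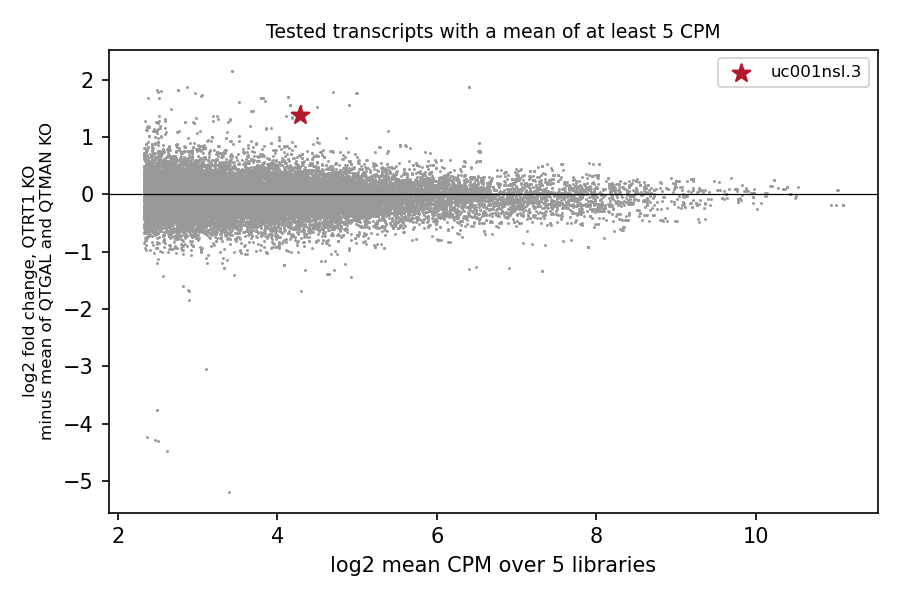
Log2 fold change of QTRT1 KO against the mean of QTGAL and QTMAN KO (y axis) by log2 mean CPM (x axis) for 26215 tested transcripts with a mean of at least 5 CPM (grey points). The star marks uc001nsl.3, at a log2 fold change of 1.38 and a mean of 19.5 CPM.

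QTGAL and QTMAN knockout were compared to ask whether the row differed between loss of the galactose and loss of the mannose enzyme. The log2 fold change was 0.22 ± 0.14 (SE), a level 1.16-fold as high in QTGAL KO, and was not called (edgeR quasi-likelihood test with Benjamini-Hochberg adjustment, adjusted p = 0.862). The 95% interval of the difference, from its SE with 11.9 degrees of freedom, ran from 0.940-fold to 1.44-fold. The interval holds both no difference and a level up to 1.44 times as high. Both QTGAL KO libraries lay above both QTMAN KO libraries, a pattern held by 18.2% of all tested transcripts. Over all 60966 tested transcripts, edgeR called 0 (0%) in this comparison, with 3954 (6.49%) under an unadjusted p of 0.05. DESeq2 called 12 of the 4231 to which it gave an adjusted p. Without QTGAL KO replicates 1 and 2 in turn, edgeR called 9 and 72, and without QTMAN KO replicates 1 and 2 it called 71 and 506.

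Libraries of one genotype were close to each other for this row. The QTGAL KO libraries differed by 0.12 on the log2(CPM + 0.5) scale and the QTMAN KO libraries by 0.075. Among the 12174 tested transcripts whose mean CPM lay within 2-fold of that of the row, the corresponding medians were 0.15 and 0.14. A smaller difference than that of the row was seen for 42.6% of them between the QTGAL KO libraries and for 28.9% between the QTMAN KO libraries.

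Per coding length, the QTRT1 KO library gave 86.2 CPM per 1000 codons. The QTGAL KO libraries gave 34.2 and 37.4 and the QTMAN KO libraries 29.9 and 31.5 CPM per 1000 codons, in replicate order. On this density scale the row ranked above 86.7% of tested transcripts in the QTRT1 KO library. It ranked above 71.1% and 73.3% in the QTGAL KO libraries, and above 68.0% and 69.5% in the QTMAN KO libraries. It was thus a transcript of above-median density in every library. The raw counts behind these ranks came to 1.21 footprints per codon in the QTRT1 KO library and between 0.445 and 0.818 in the others. These raw values are not scaled to library size and so also follow the depth of each library.

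Of the 20 rows within 10 of uc001nsl.3, 8 carried no coding length and 12 did. A row was taken as sharing its footprints where its count differed from that of uc001nsl.3 by less than 1.2 times in every library. This held for uc001nsj.4 (423 codons), uc010rlo.3 (414 codons) and uc001nsk.5 (387 codons). Their counts in the QTRT1 KO library were 496, 493 and 476. In QTGAL KO replicate 1 they were 341, 337 and 328, and in replicate 2 they were 183, 184 and 177. In QTMAN KO they were 233, 233 and 223 in replicate 1 and 335, 336 and 302 in replicate 2. These 3 rows give the same pattern as uc001nsl.3. Isoform rows can count the same footprints, so they are not replicates of it.

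Another 4 rows within 5 positions, of 93 to 152 codons, each held over 100 footprints summed over the libraries. Counting uc001nsl.3 and the 3 isoforms, 8 rows had such coverage there. The QTRT1 KO library was the highest of 5 in all 8 of them. Its CPM exceeded the mean of the other 4 libraries by ratios of 2.46 to 2.59, the lowest being that of the row of 104 codons, and exceeded the highest of them by at least 2.20. The 4 short rows can hold the same reads as uc001nsl.3, so these ratios restate the value by which it was chosen and are no further support for it. For QTGAL against QTMAN KO the log2 fold changes of the 8 rows ran from -0.06 in the row of 93 codons to 0.25 in uc001nsk.5. None was called (edgeR adjusted p from 0.852 to 0.984). The same holds for all 60966 tested transcripts in this comparison, so it is not particular to these rows.

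**Figure D3:**
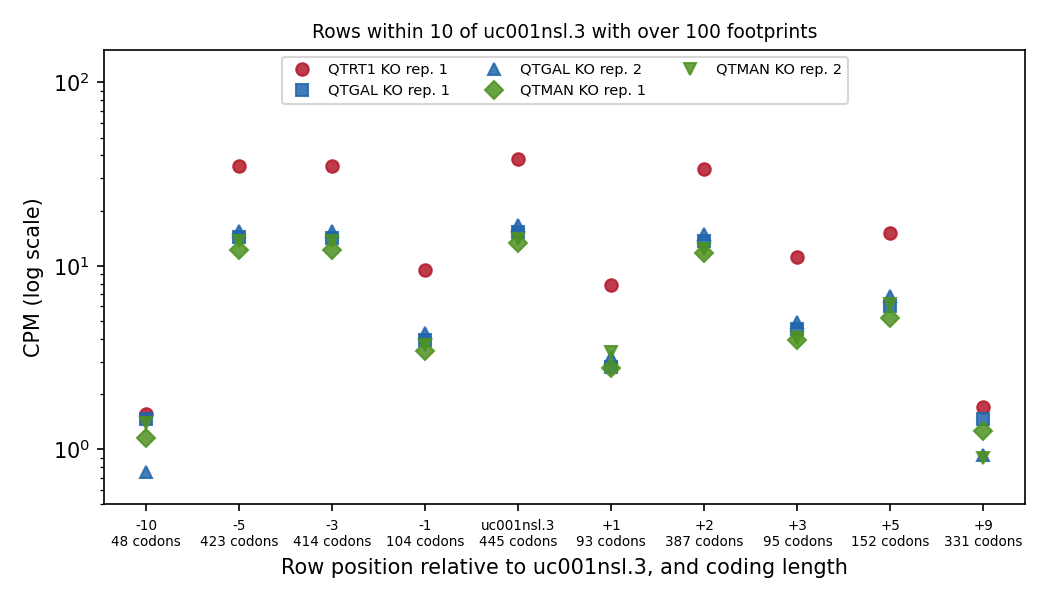
CPM on a log scale (y axis) in each library for the rows within 10 of uc001nsl.3 that held over 100 footprints (x axis, with row position and coding length). In the 8 rows from -5 to +5 the QTRT1 KO library lies above the others by at least 2.20 times the highest of them, while the rows at -10 and +9 show ratios of 1.07 and 1.16.

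Rows with almost no footprints lie between these. The rows of 56 and 53 codons, 4 and 2 positions before uc001nsl.3, held 2 and 3 footprints over all 5 libraries. In the QTRT1 KO library both were at 0, and in no library did either exceed 1. With counts of only 0 or 1, no difference between libraries was detectable in these rows at this depth.

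The counts of the 4 short rows were also taken as shares of the count of uc001nsl.3 within each library. As uc001nsl.3 was chosen by that count, the shares are not independent of the choice and are a description. The row of 104 codons held 24.6% of the count of uc001nsl.3 in the QTRT1 KO library (95% Clopper-Pearson interval 21.1 to 28.5). It held 25.8% and 25.8% in the QTGAL KO libraries and 26.0% and 26.2% in the QTMAN KO libraries. For the row of 95 codons the shares ran from 28.9% to 29.8%, with 29.3% in the QTRT1 KO library (25.5 to 33.3). The QTRT1 KO library lay within the range of the other 4 for the row of 95 codons, and just under it for the row of 104 codons by less than its interval.

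For the row of 152 codons the share was 39.4% in the QTRT1 KO library (35.3 to 43.7) and 39.0% to 44.0% in the others. For the row of 93 codons it was 20.6% in the QTRT1 KO library (17.2 to 24.2) and 18.4% to 24.2% in the others, the highest being QTMAN KO replicate 2 in both rows. These shares take the shorter reading frames as parts of the longer one, which the tables do not state. The QTRT1 KO share lay within the range of the others for the rows of 93 and 152 codons. In that library the rows of 93, 95, 104 and 152 codons held 111, 158, 133 and 213 counts. Together these exceed the 540 counts of the longer frame. The shorter rows thus overlap one another or hold reads from outside it, and are not separate stretches. Whether footprints shifted along the transcript was therefore not tested by these shares. By coding length alone, the rows of 93, 95, 104 and 152 codons would hold 20.9%, 21.3%, 23.4% and 34.2%.

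**Figure D4:**
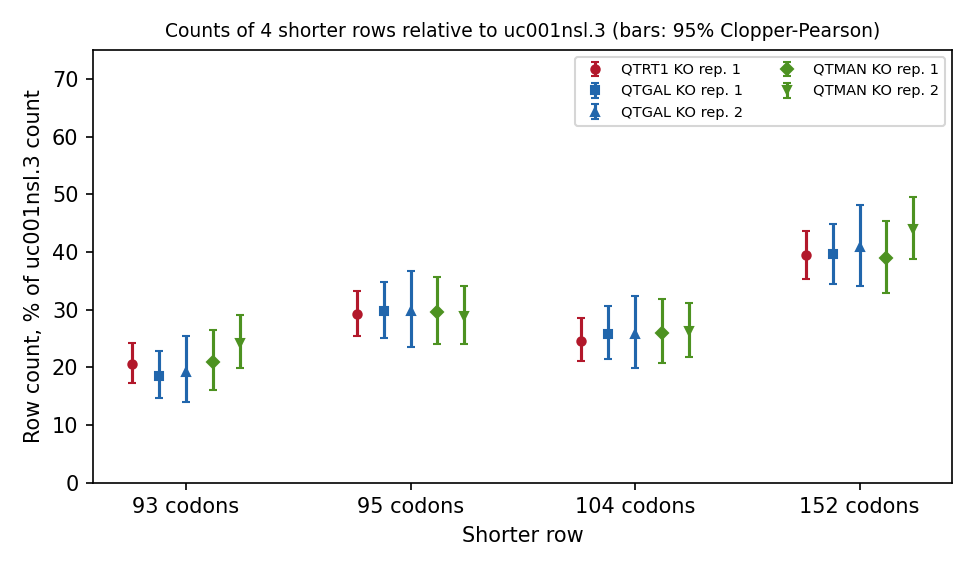
Count of 4 shorter rows as a percent of the count of uc001nsl.3 (y axis) in each of the 5 libraries, with 95% Clopper-Pearson intervals as bars. Within each row the intervals of the 5 libraries overlap, and the shares of the row of 95 codons run from 28.9% to 29.8%. The intervals take the counts of the shorter rows as parts of that of uc001nsl.3, which is not shown, so no test is drawn from their overlap.

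The counts of uc001nsl.3 and its isoforms differ by small net amounts. These are differences of row counts, not footprints of an extra stretch. The isoforms are not simply nested, since uc010rlo.3 (414 codons) had 184 counts in QTGAL KO replicate 2 where uc001nsj.4 (423 codons) had 183. The count of uc001nsl.3 less that of uc001nsj.4, which is 22 codons shorter, was 44 in the QTRT1 KO library. It was 23 and 15 in the QTGAL KO libraries and 21 and 8 in the QTMAN KO libraries, in replicate order. These net counts are not scaled to library size. As shares of the count of uc001nsl.3 they were 8.15% in QTRT1 KO, 6.32% and 7.58% in QTGAL KO, and 8.27% and 2.33% in QTMAN KO. The count of uc001nsl.3 less that of uc001nsk.5, which is 58 codons shorter, was 64 in the QTRT1 KO library. It was 36 and 21 in QTGAL KO, and 31 and 41 in QTMAN KO. As a share this was 11.9% in QTRT1 KO and 9.89% to 12.2% in the others. Whether these net counts differ between libraries was not tested.

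Rows further away showed smaller differences. Among rows 11 to 60 positions away with at least 100 footprints, 28 lie before uc001nsl.3, with log2 fold changes in the QTRT1 comparison from -0.92 to 0.49 and a median of 0.09. Another 15 lie after it, from -0.07 to 0.77 with a median of 0.11. The highest 2 of these are rows of 418 and 446 codons. The row of 446 codons, 11 positions after uc001nsl.3, stood at 2.49 CPM (35 counts) in the QTRT1 KO library. It stood at 1.76 and 1.09 CPM in the QTGAL KO libraries and at 1.67 and 1.27 CPM in the QTMAN KO libraries, a log2 fold change of 0.75. The row of 502 codons, 27 positions before, had a level like that of uc001nsl.3 in the 4 glycosyltransferase libraries, at 17.6, 17.1, 15.0 and 18.9 CPM. In the QTRT1 KO library it stood at 18.3 CPM, within that range. These rows were singled out after their values were seen. Over the 329 tested rows within 500 positions, leaving out the nearest 10 on each side, the median log2 fold change was 0.07.

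**Figure D5:**
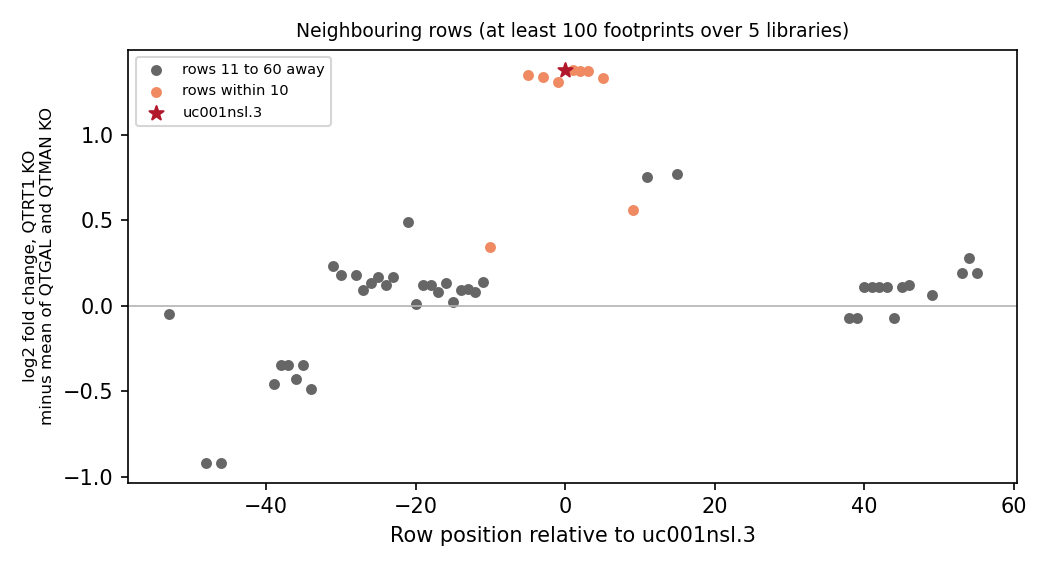
Log2 fold change of QTRT1 KO against the mean of QTGAL and QTMAN KO (y axis) by row position relative to uc001nsl.3 (x axis), for rows with at least 100 footprints. The rows from -5 to +5 lie between 1.31 and 1.38, and those beyond 10 positions between -0.92 and 0.77.

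The transcripts whose pattern over the 5 libraries was most like that of uc001nsl.3 were sought among 26204 transcripts more than 20 rows away with a mean of at least 5 CPM. Likeness was the root mean square difference of log2(CPM + 0.5), each row centred on its own mean. The nearest was uc001iww.5, of 736 codons, at a difference of 0.076. Its levels were 11.4 CPM in the QTRT1 KO library, 4.52 and 5.21 CPM in QTGAL KO, and 4.45 and 4.42 CPM in QTMAN KO. The next, among candidates more than 20 rows away from the first, was uc001zwi.5, of 601 codons, at a difference of 0.101. Its levels were 20.03 CPM in the QTRT1 KO library, 8.29 and 10.3 CPM in QTGAL KO, and 7.53 and 6.99 CPM in QTMAN KO. The median difference over all candidates was 0.57, and 40 candidates lay under 0.2. That count was made without the spacing of 20 rows between picks, so it can hold several rows of one locus. Both have the QTRT1 KO library highest and QTMAN KO lowest, by the way they were picked.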

How the data were processed

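Footprint counts per transcript, as whole numbers without normalization, were deposited by the authors in 1 table per library. The submitters' processing notes name bcl2fastq 2.19, CASAVA, STAR 2.7.0a and hg38. The annotation, counter, strand setting and treatment of reads shared by isoforms or paralogs are not given in the sources read here. The deposited length column, of another unit, was read as codons because 33.1% of its values are multiples of 3.

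edgeR 4.0.16 in R 4.3.3 was fitted to all 5 libraries with 1 mean per genotype (filterByExpr, 60966 transcripts kept; TMM; quasi-likelihood F test; Benjamini-Hochberg adjusted p under 0.05; 2 residual degrees of freedom). The QTRT1 spread was taken from the other genotypes. Fits that leave out 1 library have fewer residual degrees of freedom than this fit. The script was run on simulated data with known changes, which does not show how the test is calibrated for 1 QTRT1 KO library. DESeq2 1.42.0, other scalings and filters were alternatives. CPM values use the TMM-scaled library size. Replicates were numbered in accession order.

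The row, the isoform rule, the likeness rule and the neighbouring rows were chosen with earlier results of these data known. The named rows are uc001nsl.3, its isoforms by the count rule, and the 2 nearest by likeness. A list of fatty acid synthesis genes could not be used, since no identifier was paired with a symbol.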

Additional observations from a re-analysis of the deposited data

How the results depend on the processing

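For uc001nsl.3, the direction of all 4 comparisons and the side of the threshold for QTGAL against QTMAN KO were kept under every alternative that gave a value. For DESeq2 that is a log2 fold change of 0.22 ± 0.20 (SE) without an adjusted p, where the edgeR SE was 0.14. The DESeq2 SEs were also larger for QTRT1 KO against both (0.22), against QTGAL KO (0.24) and against QTMAN KO (0.24). The log2 fold change of QTRT1 KO against both ran from 1.35 to 1.42 when 1 library was left out, that against QTGAL KO from 1.2 to 1.34, and that against QTMAN KO from 1.46 to 1.53. That of QTGAL against QTMAN KO ran from 0.15 to 0.29. Subtracting the median of rows within 500 positions, an alternative added after the data were seen, gave 1.31, 1.22, 1.42 and 0.17. Both transcripts of most like pattern stayed the nearest with a pseudocount of 1 CPM.

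Counts of called transcripts moved with the settings. The cause was not tested. In the order QTRT1 against both, against QTGAL, against QTMAN, and QTGAL against QTMAN, edgeR called 98, 6, 69 and 0 of 60966. With no filter it called 1161, 645, 1159 and 282 of 79348. DESeq2 called 165, 51, 163 and 12, of the 27870, 14868, 12505 and 4231 transcripts to which it gave an adjusted p. Scaling by library size alone gave 211, 35 and 203 in the QTRT1 comparisons. With at least 5 CPM in 2 libraries, 14 of 27375 were called against both and 26 against QTMAN. Against QTGAL, upper quartile scaling gave 11 and 1 row per set of identical adjacent rows gave 12. Leaving out 1 library gave 95 to 1438, 7 to 869, 172 to 1144 and 9 to 506. The highest came without QTMAN replicate 2 in each comparison and the lowest without QTGAL replicate 1. Without QTGAL replicate 2 the counts were 480, 235, 347 and 72, and without QTMAN replicate 1 they were 431, 349, 247 and 71.

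The first number in the titles was used as a replicate block for QTGAL against QTMAN KO. It gave 47 calls and left uc001nsl.3 at 0.22 (edgeR adjusted p = 0.667). Libraries of the same number deviated together at r = 0.17 across transcripts, over 2 pairs only, so the number is not taken to pair them. The row rests on 198 to 540 footprints per library. The spread between QTRT1 KO libraries has no measured value, as there is 1 such library.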
